A study of Mus musculus with 2 samples.

Results

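The olfactory receptor genes of mouse chromosome 2 were represented by 244 probes, defined as every non-control probe whose gene name was Olfr followed by a number and whose mm9 position lay on chromosome 2. They made up 244 of 41174 distinct non-control probes and covered 239 genes. Of them, 243 probes for 238 genes had a usable spot on both arrays and are described here, against 41084 usable probes and 28045 gene names in all. The remaining probe, for Olfr1080, read 366.6 on the array labelled MARVELD1 and 19.5 on the empty vector array. Its spot on the array labelled MARVELD1 carried the scanner software's outlier mark, so it was left out.

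RNA came from NIH3T3 cells, an established line of mouse embryonic fibroblasts. The first sample was transfected with pcDNA3.1-MARVELD1, a mammalian expression plasmid carrying MARVELD1, and the second with the pcDNA3.1 vector alone. Stable lines were selected with G418, and the labels do not say whether a line was 1 clone or a pool. Each sample was labelled with Cy3 and hybridised to 1 single-colour Agilent array, so there were no replicates and no difference below could be tested.

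Olfactory receptors are G protein-coupled receptors that bind odorants on the cilia of olfactory sensory neurons. Their coding sequence usually lies in a single uninterrupted exon, the genes stand in large genomic clusters, and a mature neuron usually expresses a single allele of a single receptor gene. The receptors signal through the G protein subunit Gnal and the adenylyl cyclase Adcy3 to a cyclic nucleotide-gated channel, and in an olfactory neuron the receptor genes that are not chosen are held in heterochromatin.

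The probes that carried the description were the 3 brightest, the 2 dimmest, the 2 with the largest measured differences and a pair that share a stretch of sequence. Each is printed as the array's 60-base probe, 5′ to 3′. In the first 7, capitals mark runs of 6 or more pyrimidines (C or T), because the pyrimidine content of a probe went with its signal, as described further on. The brightest 3 were Olfr1143 (mm9 chr2:87643070-87643129, plus strand), Olfr1048 (chr2:86076285-86076344, minus strand) and Olfr354 (chr2:36762657-36762716, plus strand).
Olfr1143: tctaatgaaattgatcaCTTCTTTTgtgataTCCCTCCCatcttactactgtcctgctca
Olfr1048: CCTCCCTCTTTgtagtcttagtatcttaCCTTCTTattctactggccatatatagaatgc
Olfr354: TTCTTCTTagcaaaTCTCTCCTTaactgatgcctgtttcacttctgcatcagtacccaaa

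The dimmest 2 were Olfr1202 (chr2:88657555-88657614, plus strand) and Olfr1100 (chr2:86818000-86818059, minus strand), and neither held such a run.
Olfr1202: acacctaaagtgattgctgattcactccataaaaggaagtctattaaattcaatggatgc
Olfr1100: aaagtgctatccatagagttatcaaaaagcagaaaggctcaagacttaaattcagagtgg

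Among probes called above background on each array, the largest difference upward on the array labelled MARVELD1 was that of Olfr1255 (chr2:89657107-89657166, plus strand) and the largest downward that of Olfr352 (chr2:36725863-36725922, plus strand).
Olfr1255: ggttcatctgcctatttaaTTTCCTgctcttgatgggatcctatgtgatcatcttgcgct
Olfr352: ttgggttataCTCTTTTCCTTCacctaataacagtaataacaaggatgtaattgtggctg

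In the pair Olfr1282 (chr2:111176114-111176173, minus strand) and Olfr1285 (chr2:111248617-111248676, plus strand), capitals mark 31 bases that both probes contain.
Olfr1282: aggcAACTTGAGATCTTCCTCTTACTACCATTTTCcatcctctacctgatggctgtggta
Olfr1285: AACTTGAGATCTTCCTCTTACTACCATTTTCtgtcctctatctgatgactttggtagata

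Through accession or name, 243 probes matched a RefSeq gene record on chromosome 2, of which 237 were protein-coding and 6 pseudogenes. The records named 47 receptor families of the MOR nomenclature. Olfr1125 matched the record of Olfr1124, so the identity of that probe is uncertain. In 9 pairs, involving 18 probes, the probes shared 20 or more bases in a row. A transcript of a close relative could therefore contribute to such a signal, and 35 probes listed more than 1 RefSeq transcript.

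Facts of the whole arrays bear on every value. The 75th percentile of signal was 703 on the array labelled MARVELD1 and 768 on the empty vector array, and differences are log2 values after each array was divided by it, array labelled MARVELD1 minus empty vector. Over all usable probes the median difference was 0.16 with this scaling, 0.06 with array medians and 0.01 with quantile normalization, so each result is given beside other probes. Both arrays had the same scan time. Marveld1 did not read higher on the array carrying its name: its brighter probe read 6292.8 there and 8724.7 on the empty vector array, and its other probe 126.4 there and 184.4 on the empty vector array. The probes were not checked against the plasmid's insert. Whether the labels of the 2 arrays were exchanged was not tested, and an exchange would turn the sign of every difference given here. All 10 fibroblast markers, each taken by its probe with the highest signal, were well above background on both arrays. By that probe 3 were at least 2-fold lower on the array labelled MARVELD1: Pdgfrb, Col3a1 and Fn1, with log2 differences of -2.10, -1.56 and -1.12. Of all probes called on each array, 3.89% were 2-fold lower. The brightest of them, S100a4, Vim and Col1a1, read between 102374 and 233931 on the array labelled MARVELD1 and between 107829 and 214601 on the empty vector array.

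Most of the receptor probes read above background and few read brightly. On the array labelled MARVELD1 their processed signal had a median of 163, an interquartile range of 60.6 to 316 and a maximum of 1971. On the empty vector array the median was 145, the interquartile range 43.4 to 267 and the maximum 3345. Negative control spots, which match no mouse transcript, had a median of 8.73 on the array labelled MARVELD1, with single spots up to 301. On the empty vector array their median was 8.55, with single spots up to 168.

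The scanner software called 190 of the 243 probes (78.2%) well above background on the array labelled MARVELD1, where 68.7% of all usable probes were. On the empty vector array it called 182 (74.9%), against 68.5% of all. Both arrays together gave 178 probes (73.3%), against 65.2% of all, and these are referred to as measured on both arrays. On neither array were 49 called. A further 12 were called on the array labelled MARVELD1 alone and 4 on the empty vector array alone. The same software called 7 of the 153 negative control spots on the array labelled MARVELD1 and 3 of 153 on the empty vector array. A call is thus a statement on brightness and does not show that the receptor was transcribed.

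The signals lay in a narrow middle range. Only 10 of the receptor probes on each array (4.12%) exceeded the array's 75th percentile, against 24.5% of all usable probes on either array. Olfactory receptor probes of other chromosomes or without a position, 711 in number, had medians of 146 on the array labelled MARVELD1 and 127 on the empty vector array. The 142 probes for vomeronasal receptors, another chemosensory family, had medians of 114 on the array labelled MARVELD1 and 91.0 on the empty vector array.

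The dividing line between probes called and not called was not sharp. The dimmest receptor probe called well above background read 39.3 on the array labelled MARVELD1 and 41.4 on the empty vector array. The brightest not called read 59.1 on the array labelled MARVELD1 (an Olfr1307 probe) and 51.3 on the empty vector array. The lowest signal of any probe well above background was 33.8 on the array labelled MARVELD1 and 33.0 on the empty vector array. Close to it, Olfr1214 read 39.3 on the array labelled MARVELD1 and 43.4 on the empty vector array and was called on both. Olfr1297 read 33.0 on the array labelled MARVELD1 and 33.7 on the empty vector array, and Olfr1039 read 31.7 on the array labelled MARVELD1 and 33.2 on the empty vector array. Neither of these was called on either array.

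**Figure D1:**
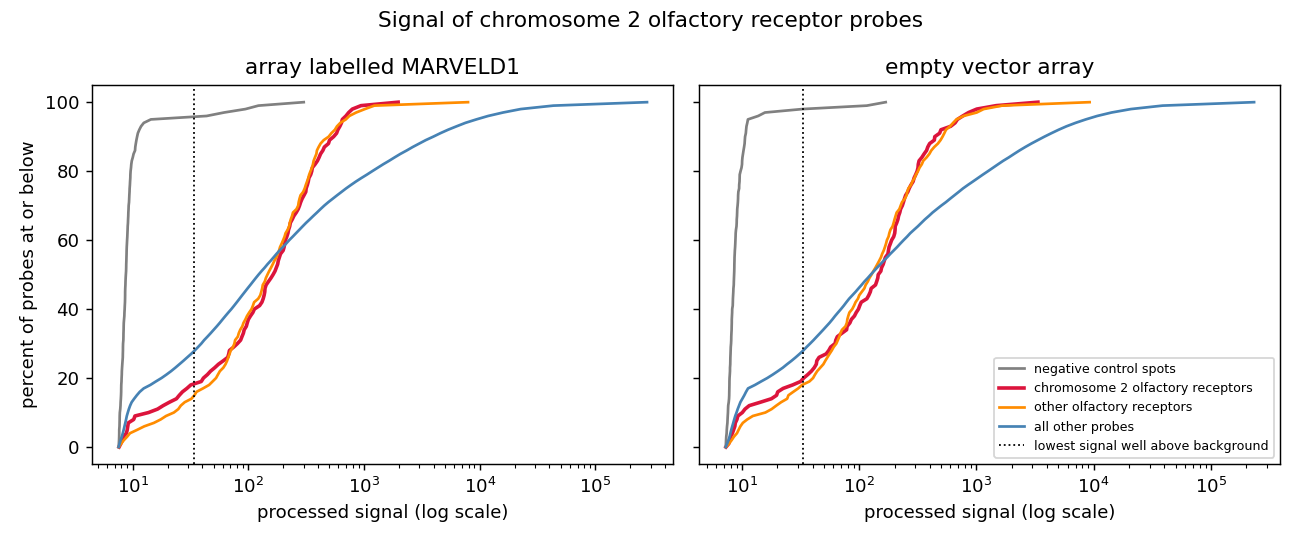
Cumulative percent of probes (vertical axis) at or below a processed signal (horizontal axis, log scale) on the array labelled MARVELD1 (left) and the empty vector array (right), for negative control spots, receptor probes of chromosome 2, other olfactory receptor probes and all other probes. The receptor curves lie right of the negative controls, with medians of 163 on the array labelled MARVELD1 and 145 on the empty vector array, and end before the bright tail of the other probes.

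Olfr1143 was the brightest receptor probe, at 1971 on the array labelled MARVELD1 and 3345 on the empty vector array. Olfr1048 read 1495 on the array labelled MARVELD1 and 2059 on the empty vector array. Olfr354 read 1024 on the array labelled MARVELD1 and 1572 on the empty vector array. All 3 were higher on the empty vector array, with log2 differences of -0.64, -0.33 and -0.49. The next 7 by mean signal were Olfr1282, Olfr1312, Olfr1232, Olfr1270, Olfr1285, Olfr1269 and Olfr1215, which read between 617 and 828 on the array labelled MARVELD1 and between 689 and 1336 on the empty vector array. At the other end, Olfr1202 read 7.62 on the array labelled MARVELD1 and 7.28 on the empty vector array, below the median negative control on both.

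In the pair with 31 shared bases both probes read higher on the empty vector array. Olfr1282 had 828 on the array labelled MARVELD1 and 1336 on the empty vector array, and Olfr1285 had 617 on the array labelled MARVELD1 and 940 on the empty vector array. Their log2 differences were -0.56 and -0.48. Whether the shared stretch captured the same RNA was not tested.

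The 6 probes for pseudogenes, whose records carry no intact receptor, were all called on each array. Of all usable probes 65.2% were called on both arrays, and of the chromosome 2 receptor probes 73.3%. The pseudogene probes read between 67.5 and 414 on the array labelled MARVELD1 and between 81.6 and 484 on the empty vector array. The brightest of them was Olfr1010, at 414 on the array labelled MARVELD1 and 484 on the empty vector array. The records of Olfr1010, Olfr1038 and Olfr1273 were of the type transcribed pseudogene, and the rest of the type pseudogene.

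The base composition of a probe went with its signal. Receptor probes held on average 58.9% C+T (SD 7.57 over 243 probes), other olfactory receptor probes 58.4% and all other probes 49.3%. A run of 6 or more pyrimidines occurred in 77.0% of the chromosome 2 receptor probes and in 47.7% of the other probes. Across the 243 receptor probes the Spearman correlation of mean signal with C+T content was 0.76. It was 0.71 across the 711 other olfactory receptor probes and 0.27 across the 40130 other probes. These are descriptions across probes that share the same 2 arrays, and they carry no test.

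With C+T of 56.7% or less, 36 of 88 receptor probes (40.9%) were measured on both arrays. Between 58.3% and 63.3% it was 76 of 88 (86.4%), and at 65% or more 66 of 67 (98.5%). Probes for other genes followed the same order, at 60.4%, 87.7% and 96.5%. On the array labelled MARVELD1 the receptor medians in these 3 classes were 42.9, 178 and 357, and on the empty vector array 38.7, 157 and 318. The printed probes show the 2 ends of the range: Olfr1143 holds 68.3% C+T and Olfr1100 holds 36.7%. How much of a signal came from a receptor transcript and how much from the probe's composition was not tested.

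**Figure D2:**
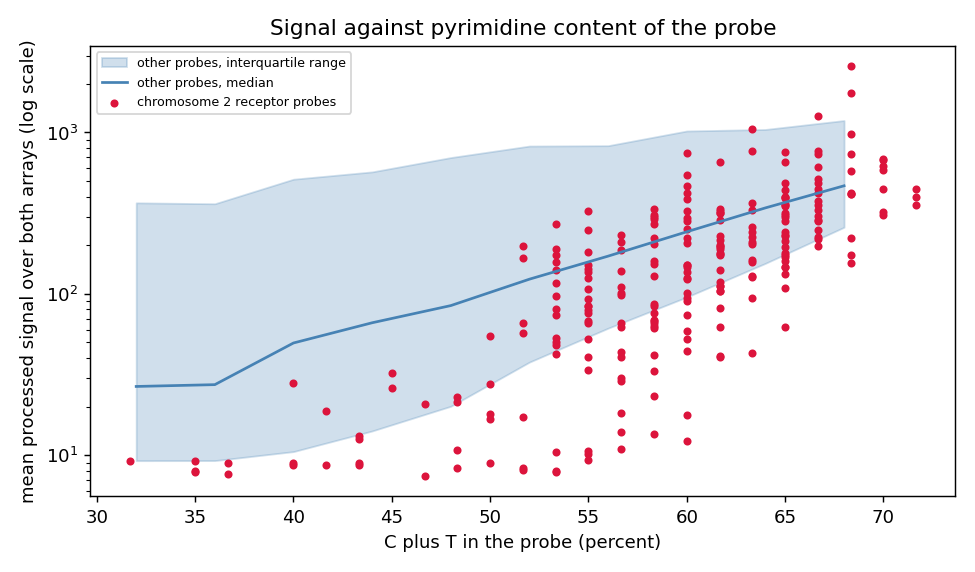
Mean processed signal over both arrays (vertical axis, log scale) against the percent of C plus T in the probe (horizontal axis) for the 243 receptor probes (points), with the median (line) and interquartile range (band) of all other probes. Signal was higher in probes with more C plus T, with a Spearman correlation of 0.76 across the receptor probes.

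Receptor probes read slightly higher on the array labelled MARVELD1, as did probes at large, and by slightly more. The median log2 difference of the 243 probes was 0.23, with an interquartile range of 0.02 to 0.49, and 186 (76.5%) were above 0. Over all usable probes the median was 0.16 and 66.3% were above 0. Other olfactory receptors had a median of 0.23 and vomeronasal receptors 0.26.

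Each receptor probe was then set against other probes of equal signal, using 20 bins that held equal numbers of probes for genes other than olfactory receptors. The receptor difference minus the median of its bin had a median of 0.13, and 161 of 243 (66.3%) lay above their bin's median. Of the receptor probes, 139 (57.2%) lay inside the interquartile range of their bin, 75 above it and 29 below it. The chromosome 2 receptors thus sat slightly above probes of equal signal. Other olfactory receptors had a median of 0.12 by the same measure and vomeronasal receptors 0.13, and against other olfactory receptors in the same bins the chromosome 2 median was 0.004. Within 3 broad classes of C+T content and 10 bins of signal, the median excess was 0.04. By class it was 0.01, 0.06 and 0.10, from the lowest C+T content to the highest. Other olfactory receptors had 0.09, 0.09 and 0.04 in the same order, so the rise was not shared by them.

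The sense of the difference varied with brightness. Receptor probes with a mean signal up to 26.8, 40 in number, had a median difference of 0.20, against 0.17 for other probes. The 64 probes between 26.8 and 123 had 0.26, against 0.16, and the 128 between 123 and 729 had 0.25, against 0.07. The 11 probes above 729 had -0.48, against 0.21, and 9 of these 11 were lower on the array labelled MARVELD1. The other probes in that class reached a mean signal of 254567, so they were not of equal signal. In the bin from 729 to 1209, 8 receptor probes had a median of -0.40, against 0.07 for other probes. The next bins held 2 and 1 receptor probes, with medians of -0.41 and -0.64, against 0.13 and 0.20. Among other olfactory receptors above 729, 20 of 31 were lower, with a median of -0.20, and all 3 such vomeronasal probes were lower, with a median of -0.56. With array medians, quantile normalization, loess and normexp the 11 probes kept a median between -0.59 and -0.46.

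**Figure D3:**
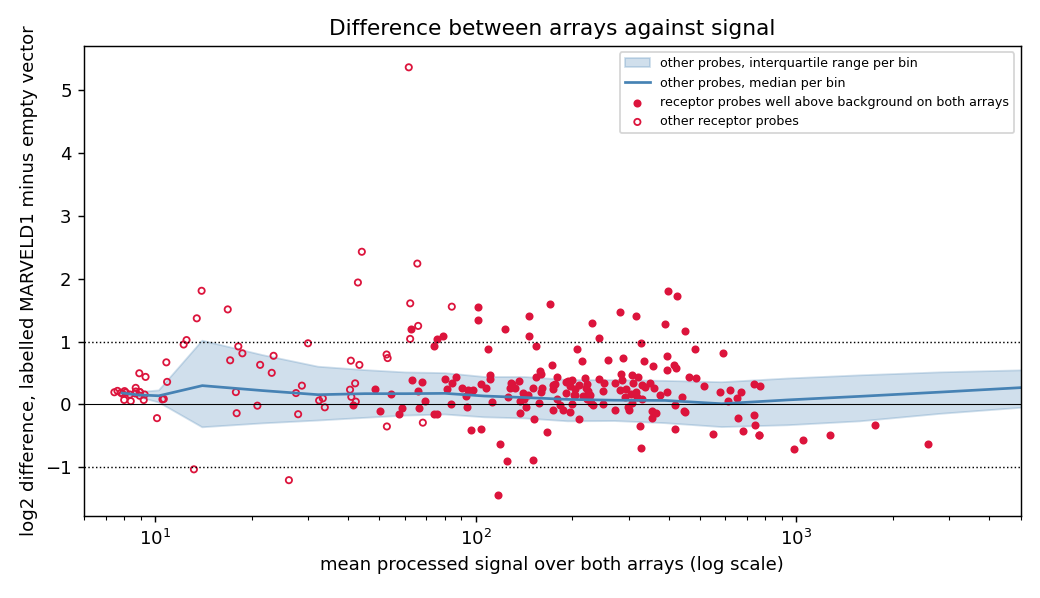
Log2 difference, array labelled MARVELD1 minus empty vector (vertical axis), against mean processed signal (horizontal axis, log scale) for receptor probes well above background on both arrays (filled points) and the others (open points), with the median and interquartile range of other probes in 20 bins and dotted lines at 2-fold. Inside the interquartile range of their bin lie 139 of 243 receptor probes, and the brightest lie below the line of other probes.

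Of the 178 receptor probes measured on both arrays, 17 were at least 2-fold higher on the array labelled MARVELD1 (9.55%), against 4.61% of all such probes and 8.44% of other olfactory receptors. Only 1 was at least 2-fold lower (0.562%), against 3.89% of all and 0.917% of other olfactory receptors. Olfr1255, the largest of the higher ones, read 714 on the array labelled MARVELD1 and 222 on the empty vector array, a 3.51-fold difference after scaling. Olfr1030 read 737 on the array labelled MARVELD1 and 243 on the empty vector array (3.32-fold), and Olfr1293, a pseudogene record, read 283 on the array labelled MARVELD1 and 102 on the empty vector array (3.03-fold). Olfr1313 and Olfr996 followed, at 2.92-fold and 2.76-fold.

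The only lower one was Olfr352, which read 68.0 on the array labelled MARVELD1 and 201 on the empty vector array, 2.71-fold lower. With normexp background correction its log2 difference was -0.99, just under 2-fold. Next in that direction came Olfr1125, with a log2 difference of -0.89, Olfr1273 with -0.89, Olfr1312 with -0.71 and Olfr1301 with -0.69.

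Where a probe was called on 1 array only, the other reading gives a bound, set against the higher of the dim reading and the array's lowest well-measured signal. By their bound, 8 of the 243 probes were at least 2-fold higher, where 1.4% of all usable probes were, and 0 were 2-fold lower, where 0.845% of all were. Olfr1286 read 379 on the array labelled MARVELD1 and 10.1 on the empty vector array, at least 12.6-fold higher. The pixels of its spot on the array labelled MARVELD1 varied with a coefficient of 43.2%, the highest among the receptor probes, whose median was 11.4%. Olfr1248 read 137 on the array labelled MARVELD1 and 31.6 on the empty vector array, at least 4.52-fold higher. Olfr1133 was at least 3.24-fold and Olfr1128 at least 3.05-fold higher. These bounds hold for the processed signal only. With normexp background correction the log2 differences were 2.50 for Olfr1286 and 1.07 for Olfr1248. For Olfr1133 and Olfr1128 they were 0.87 and 0.70, both under 2-fold. In the other direction the bounds of Olfr1228, Olfr1307 and Olfr1046 were between 1.12-fold and 1.27-fold lower.

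The higher probes were not spread evenly over the surface of the array. The array had 532 rows, and each probe had the same place on both arrays. Of the receptor probes in rows 1 to 133, 2 of 71 were at least 2-fold higher without a filter on dim probes (2.82%), and in rows 134 to 266, 2 of 67 (2.99%). In rows 267 to 399 it was 16 of 53 (30.2%), and in rows 400 to 532, 9 of 52 (17.3%). Over all usable probes without that filter, 7.2% were at least 2-fold higher. In the other direction 3 receptor probes were at least 2-fold lower without the filter, against 4.82% of all usable probes.

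Other probes were also 2-fold higher most often in rows 267 to 399. Probes other than olfactory receptors were 2-fold higher in 2.29%, 4.81%, 13.2% and 7.85% of cases in these 4 bands of rows, and other olfactory receptors in 0%, 2.91%, 25% and 20.8%. Of the 17 receptor probes well above background on both arrays and 2-fold higher, 0 lay in the first band, 1 in the second, 12 in the third and 4 in the fourth. The median difference of receptor probes was 0.09, 0.22, 0.47 and 0.35 in the 4 bands. Other olfactory receptors had 0.08, 0.23, 0.40 and 0.46, and probes other than olfactory receptors 0.14, 0.18, 0.18 and 0.14. Genes of the same cluster could lie far apart on the array, as with Olfr1282 in row 91 and Olfr1285 in row 256.

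The spots around a higher probe were themselves higher. Within 10 rows and 5 columns, the median difference of neighbouring spots was 0.30 around the 29 receptor probes that were 2-fold higher without a filter and 0.16 around all 243. The tenth of places with the highest neighbourhoods held 23 receptor probes and 16 of those 29. It also held 34 of the 92 other olfactory receptor probes that were 2-fold higher, and 985 of 2836 such probes for other genes. Around those 92 and 2836 probes the medians of neighbouring spots were 0.24 and 0.21. Olfr1286 (row 334, column 15) and Olfr1248 (row 338, column 14), with the 2 largest bounds, lay close together, in neighbourhoods with medians of 0.57 and 0.51. When each probe was set against its neighbourhood, 7 receptor probes measured on both arrays were 2-fold higher in place of 17, and 3 lower in place of 1. Over all probes measured on both arrays the shares were then 2.49% higher and 5.55% lower. The median difference of receptor probes was then 0.07, and 0.12 relative to probes of equal signal. Whether place on the array produced the higher readings was not tested.

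**Figure D4:**
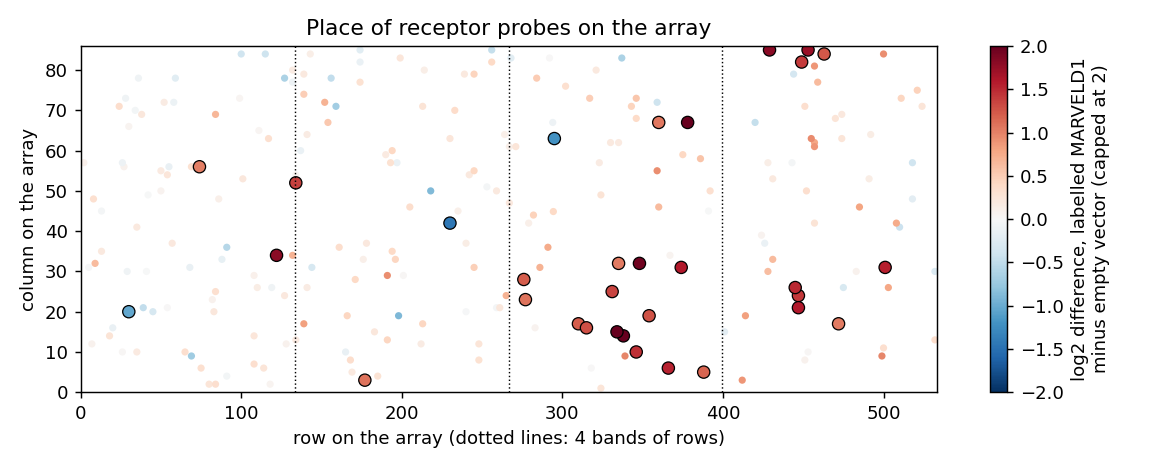
Row (horizontal axis) and column (vertical axis) of each receptor probe on the array, coloured by its log2 difference, array labelled MARVELD1 minus empty vector, capped at 2; larger outlined points were at least 2-fold higher or lower, and dotted lines separate the 4 bands of rows. Of 29 probes at least 2-fold higher, 16 lie in rows 267 to 399 and 9 in rows 400 to 532.

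Repeated spots and probes of the same gene give the technical spread of single readings. An Olfr1307 probe was printed 10 times, and every other receptor probe once. Its 8 usable spots read between 179 and 310 on the array labelled MARVELD1, with a median of 294, and between 125 and 352 on the empty vector array, with a median of 281. Their log2 SD was 0.28 on the array labelled MARVELD1 and 0.63 on the empty vector array. The array also held 59 probes printed 10 times with signals inside the interquartile range of the receptors. The root mean square of their log2 SDs was 0.33 on the array labelled MARVELD1 and 0.41 on the empty vector array. The median SDs were 0.20 on the array labelled MARVELD1 and 0.28 on the empty vector array. Combined as if the arrays were independent, these give 0.52 and 0.34 for a difference between single spots. The SD of the differences themselves was not computed. This covers spot noise only.

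Several receptor genes had more than 1 probe. For Olfr1036, 1 probe read 490 on the array labelled MARVELD1 and 203 on the empty vector array, a log2 difference of 1.40, while the other read 224 on the array labelled MARVELD1 and 197 on the empty vector array, a difference of 0.31. These probes stood in rows 449 and 84. For Olfr154 the probes gave -0.64 and 0.25, and for Olfr1206 -0.01, -0.04 and 0.41. The Olfr154 probe with -0.64 stood in a neighbourhood with a median of -0.42, and the other in one with 0.16. Of the Olfr1307 probes, that with 10 spots gave 0.40, and the other, not well above background on the array labelled MARVELD1, gave only a bound of at least 1.22-fold lower.

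Along chromosome 2 the probes fell into 3 clusters separated by more than 1 Mb (mm9). The first, from 36233065 to 37187897, held 25 probes from Olfr338 to Olfr368. The second, from 85171954 to 90136522, held 183 probes from Olfr987 to Olfr1273, and the last, from 111097314 to 111982937, held 35 from Olfr1276 to Olfr1317. Well above background on both arrays were 88% of probes in the first, 72.1% in the second and 68.6% in the last. Their median signals were 188, 147 and 203 on the array labelled MARVELD1, and 165, 144 and 143 on the empty vector array.

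The median log2 differences were 0.26, 0.21 and 0.24 from the first cluster to the last. Of the probes measured on both arrays, 0 of 22 were 2-fold higher in the first cluster, 14 of 132 in the second and 3 of 24 in the last, against 4.61% of all such probes. Olfr352, the only one 2-fold lower, was in the first cluster. Adjacent probes had weakly related signals: the Spearman correlation was -0.20 over 24 pairs, -0.13 over 182 and -0.01 over 34. The brightest probes, Olfr354, Olfr1143 and Olfr1282, each stood in a different cluster.

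**Figure D5:**
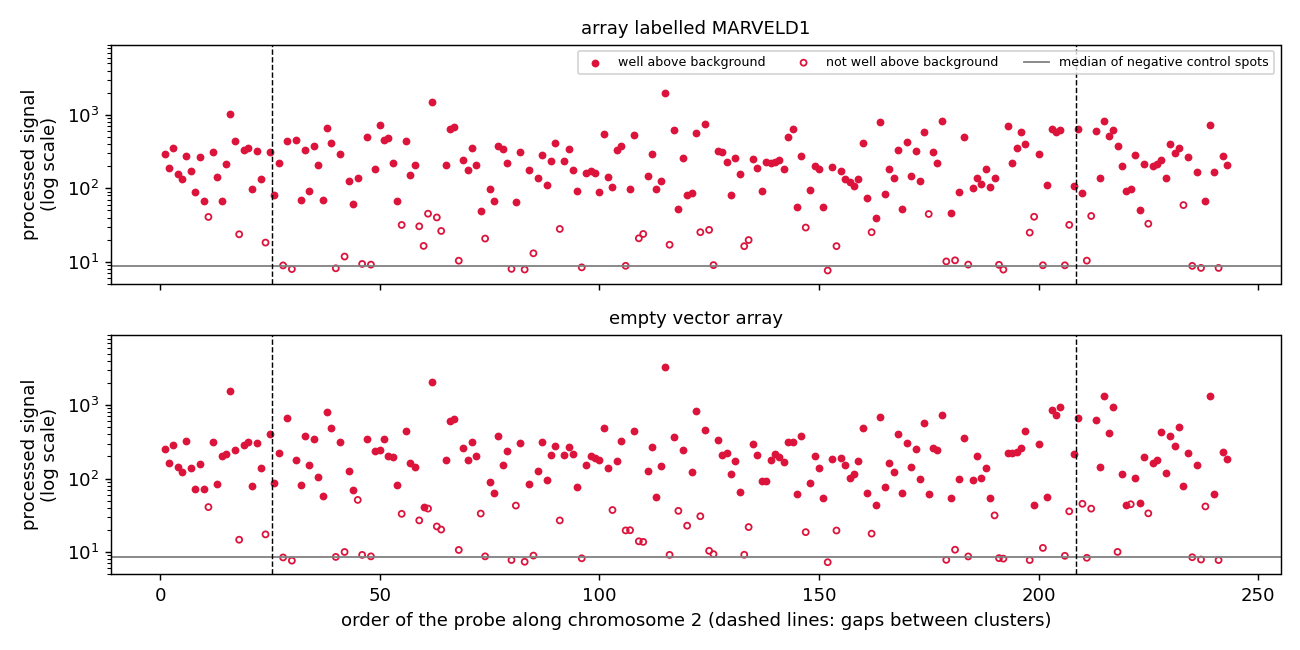
Processed signal (vertical axes, log scale) of each receptor probe in its order along chromosome 2 (horizontal axis), on the array labelled MARVELD1 (top) and the empty vector array (bottom); filled points are well above background, the grey line is the median negative control and dashed lines separate the 3 clusters. Bright and dim probes are interspersed within each cluster, and 190 probes on the array labelled MARVELD1 and 182 on the empty vector array are filled.

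By MOR family, the group with the most probes was MOR245, with 23. Its median signal was 208 on the array labelled MARVELD1 and 154 on the empty vector array. On both arrays 16 of its 23 probes were called, where 65.2% of all usable probes and 73.3% of the chromosome 2 receptor probes were. MOR233, with 16 probes, had medians of 166 on the array labelled MARVELD1 and 154 on the empty vector array. MOR174, with 15, had medians of 190 on the array labelled MARVELD1 and 176 on the empty vector array. Median log2 differences in these 3 families were 0.30, 0.30 and 0.09.

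The genes that act beside the receptors did not pass 2-fold. Of 23 genes for signal transduction and receptor transport, 21 had a probe and 17 were well above background on both arrays by the probe with the highest signal. Of all usable probes, 65.2% were well above background on both. Of those 17 genes, 0 were 2-fold higher and 0 were 2-fold lower, where 4.61% and 3.89% of all probes were. The median difference of the 17 was -0.02. Gnal, the olfactory G protein subunit, read 215 on the array labelled MARVELD1 and 185 on the empty vector array. Adcy3, the cyclase it activates, read 30.6 on the array labelled MARVELD1 and 25.04 on the empty vector array and was not well above background on either.

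Cnga2, a subunit of the olfactory channel, read 124 on the array labelled MARVELD1 and 76.2 on the empty vector array, a log2 difference of 0.83. Cngb1, another subunit of that channel, ran the opposite way, at 93.8 on the array labelled MARVELD1 and 152 on the empty vector array, a log2 difference of -0.56. Omp, the olfactory marker protein of mature neurons, read 107 on the array labelled MARVELD1 and 111 on the empty vector array. The 10 markers of olfactory sensory neurons were each taken by the probe with the highest signal. Of them, 9 were well above background on the array labelled MARVELD1, where 68.7% of all usable probes were. On the empty vector array 8 were, against 68.5% of all. The unscaled signals of the 10 markers summed to 1007 on the array labelled MARVELD1 and 1035 on the empty vector array. After scaling, the median log2 difference of the 8 measured on both arrays was 0.11. Adcy3 was the marker called on neither array.

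Of 16 genes known to act in receptor choice or in silencing, all 16 were called on the array labelled MARVELD1 and 15 on the empty vector array. Of all usable probes, 68.7% were called on the array labelled MARVELD1 and 68.5% on the empty vector array. Each of the 16 genes was taken by its probe with the highest signal. The median log2 difference of these genes was 0.24 over the 15 called on both, with 0 past 2-fold in either direction. Ebf4, a transcription factor of the Olf/Ebf family, read 232 on the array labelled MARVELD1 and 144 on the empty vector array, a log2 difference of 0.82. Other genes of the list ran the opposite way: Ebf1, of the same family, had a log2 difference of -0.77 and the kinase gene Eif2ak3 -0.80. Markers of immature olfactory neurons were mixed. Ncam1, a neural adhesion molecule, read 7579 on the array labelled MARVELD1 and 4386 on the empty vector array by its brightest probe. That log2 difference was 0.92, and its other probes called on both arrays gave 0.64, 0.23, -0.06, -0.16 and -0.52. Gng8 had a log2 difference of 0.64 and Tubb3 one of -0.16. Gap43, a growth cone protein, read 10.9 on the array labelled MARVELD1 and 10.2 on the empty vector array and was called on neither.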

How the data were processed

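The authors deposited, per the file headers, spot intensity values from Agilent Feature Extraction 9.5.3.1 with mm9 probe positions; processed intensity is background-corrected by that software. The authors also deposited a table of log2 values for 26851 probes, including 178 receptor probes; it was used as an alternative. Its values equalled log2 of the processed intensity over 123 on the array labelled MARVELD1 and over 125 on the empty vector array, within 1%, for 99.7% and 99.6% of its probes, and its column medians were 2.94 for the array labelled MARVELD1 and 3.11 for the empty vector array. How that table was filtered is not given in the sources used here. From the intensity values, outlier spots (223 on the array labelled MARVELD1, 116 on the empty vector array) and control spots were left out, log2 values were centred on each array's 75th percentile, and spots of a probe were averaged. Python 3.11.15, numpy 2.4.6, pandas 2.3.3, R 4.3.3 and limma 3.58.1 were used, the last for quantile, loess and normexp (offset 50) alternatives. With 1 array per group nothing was tested between groups, and the number of arrays limits the precision.

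Members and gene lists were chosen with earlier results of these data known. Named genes were the 10 brightest, the 5 largest differences and 4 largest bounds each way, the 2 dimmest, the brightest per cluster, genes with several probes, those next to the lowest well-measured signal, and of the lists the 3 brightest, the 3 largest differences each way, Omp, Gnal, Adcy3 and Cnga2, beside Marveld1. Olfr1010, Olfr1038, Gap43, Gng8, Tubb3, Thy1, Sparc and Pdgfra were named after their values were seen. Gene records came from the RefSeq table of GRCm38.p6, whose coordinates were not used. Exon or UTR location of the probes was not analysed here.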

Additional observations from a re-analysis of the deposited data

How the results depend on the processing

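The number of receptor probes past 2-fold depended on the settings. There were 17 higher and 1 lower, against 4.61% higher and 3.89% lower among all probes measured on both arrays. In brackets are these shares of all probes under each setting except the authors' deposited table. A 1.5-fold limit gave 32 higher and 7 lower (16.9% and 10.1% of all). A 3-fold limit gave 3 higher and 0 lower (0.899% and 1.26%). Without a filter on dim probes there were 29 higher and 3 lower (7.2% and 4.82%), and with normexp 8 higher and 0 lower (1.65% and 2.63%). Quantile normalization (3.55% and 4.63%) and loess (3.22% and 5.01%) each gave 13 higher and 2 lower, and array medians 13 higher and 1 lower (3.38% and 4.91%). The authors' deposited table gave 13 higher and 3 lower, but the shares of all its probes are not given here, so these counts have no comparison. Against neighbouring spots, an alternative chosen after seeing the data, there were 7 higher and 3 lower (2.49% and 5.55%). The median difference stayed above 0, from 0.07 against neighbouring spots to 0.24 among probes called on at least 1 array, with 0.12 in the authors' deposited table. The excess over probes of equal signal ranged from 0.07 with normexp to 0.14 over bins, scalings and filters. It was 0.04 within classes of C+T content, also chosen after seeing the data, and 0.004 against other olfactory receptors. Calls above background ranged from 145 to 222 of the 243 on the array labelled MARVELD1 and from 138 to 220 on the empty vector array. Shares of all probes under these other criteria are not given here. Above the brightest negative control spot lay 66 of 243 receptor probes on the array labelled MARVELD1, against 14554 of 41084 usable probes. On the empty vector array 109 receptor probes did, against 18639 of all usable probes. Normexp moved the differences of Olfr1313, Olfr1286, Olfr1248, Olfr1133, Olfr1128 and Olfr1046 toward 0. Dim signals and single spots limit every single difference. No paired analysis was possible because each group had 1 array and the labels give no replicate numbers.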
